A study of Mus musculus with 15 samples.

Results

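Cohesin is a protein ring that holds sister chromatids together after DNA replication and folds chromosomes into loops. Its core is a pair of SMC ATPases closed by a kleisin subunit, to which a STAG subunit binds. Dividing and resting somatic cells use SMC1A, SMC3, RAD21 and STAG1 or STAG2, whereas germ cells in meiosis exchange several of these for the meiotic forms SMC1B, REC8 and STAG3. In oocytes the ring is loaded before birth and has to last until ovulation, and loss of cohesin from oocyte chromosomes with maternal age is a much studied background to errors of chromosome segregation. The 8 genes described here, Rec8, Smc1b, Stag3, Smc1a, Smc3, Rad21, Stag1 and Stag2, were chosen by symbol as cohesin subunits and make up 8 of 24656 genes in the deposited table. Of these, 3 are the meiotic forms and 5 the mitotic forms, of which Smc3 serves both complexes.

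Each library holds RNA of 1 whole ovary from 1 UM-HET3 mouse, a genetically mixed stock made by crossing inbred strains. The mice were randomised at 6 months of age, and each of the 3 groups has 5 libraries. One group was untreated and 6 months old, another was untreated and 12 months old, and in the last the mice were 12 months old after canagliflozin (Cana), an inhibitor of the renal glucose transporter SGLT2, from 6 to 12 months. Values are given as normalised reads, the reads of a gene after division by a factor for its library, from which the whole reads were worked back.

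Depth ran from 11750426 to 13629491 reads in the 6-month controls, 11309530 to 13108281 in the 12-month controls and 8472205 to 13046600 in the canagliflozin group. The depth stated in the labels is far below these totals, which come from the values themselves. No oocyte, granulosa, luteal, stromal or epithelial marker searched was at 0 in every library of a group, and 17 of 19 oocyte markers passed the filter on low values. That filter, a value of 10 or more in 5 or more libraries, left 17569 genes and was passed by all 8 cohesin genes. Smc1b passed it through the control libraries, since no canagliflozin library reached 10. The 12-month control replicate 3 stood apart by red cell transcripts (18087 normalised reads summed over 5 markers, against up to 2319 in the 6-month controls and up to 7442 with canagliflozin). The extraction protocol in the labels speaks of the 12-month groups alone, and whether the ages differed in preparation was not tested. Genes were tested with limma on log2(value + 1), a scale that understates the change of low genes, with p adjusted over all 17569 genes by Benjamini-Hochberg, and a gene is called where the adjusted p is under 0.05.

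Promoter sequence is shown for Smc1b and Smc3, which encode both arms of the meiotic SMC pair, 1 of them of the 3 low meiotic forms and the other of the 5 abundant mitotic forms. The stretches are RefSeq sequence of build GRCm38.p6, taken upstream of the start site and free of annotated exons, at chr15:85131965-85132059 on the minus strand for Smc1b and chr19:53600146-53600395 on the plus strand for Smc3. Capitals mark TCCCGC or its reverse complement GCGGGA, the core of sites bound by E2F factors, which control genes of the cell cycle.
Smc1b: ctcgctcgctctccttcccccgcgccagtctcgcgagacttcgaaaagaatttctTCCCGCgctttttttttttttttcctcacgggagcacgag
Smc3: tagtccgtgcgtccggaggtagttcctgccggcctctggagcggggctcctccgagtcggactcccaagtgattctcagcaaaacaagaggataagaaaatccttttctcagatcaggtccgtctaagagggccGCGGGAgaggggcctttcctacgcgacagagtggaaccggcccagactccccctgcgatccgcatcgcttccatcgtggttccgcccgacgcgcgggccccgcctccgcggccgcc

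RefSeq promoter windows of 300 bases were at hand for 6 of the 8 genes (Rec8, Smc1b, Stag3, Smc1a, Smc3 and Stag1). Each of the 6 held at least 1 match to TCCCGC on either strand, as did 19.98% of all 32851 windows, and Smc3 held 2. The palindrome CACGTG, an E-box, occurred in the Stag3 window and in 7.15% of all windows, and in none of the other 5. The windows held 18 (Rec8) to 43 (Stag1) CpG sites against a median of 7 over all windows. A match of letters is a description and does not show that a factor binds.

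The meiotic forms were near the floor of detection. Per kilobase of the longest coding transcript, the level in 6-month controls was 3.98 ± 1.88 for Rec8, 3.98 ± 0.622 for Smc1b and 2.76 ± 1.79 for Stag3 (normalised reads per kb, mean ± SD, n = 5), which overlap within their spread. On the same scale the mitotic forms measured 466 ± 23.6 for Rad21, 255 ± 7.53 for Smc1a, 170 ± 9.22 for Smc3, 166 ± 12.7 for Stag2 and 94.9 ± 8.02 for Stag1. Smc3 and Stag2 could not be ordered within their spread at 6 months. Averaged over all 15 libraries, Rad21 lay above 92.6% and Stag1 above 74.4% of the genes tested, whereas Rec8, Stag3 and Smc1b lay above 6.55%, 5.19% and 3.67%. In bulk tissue, fewer cells of a type and less RNA per cell cannot be told apart, and oocytes are few among ovarian cells.

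**Figure D1:**
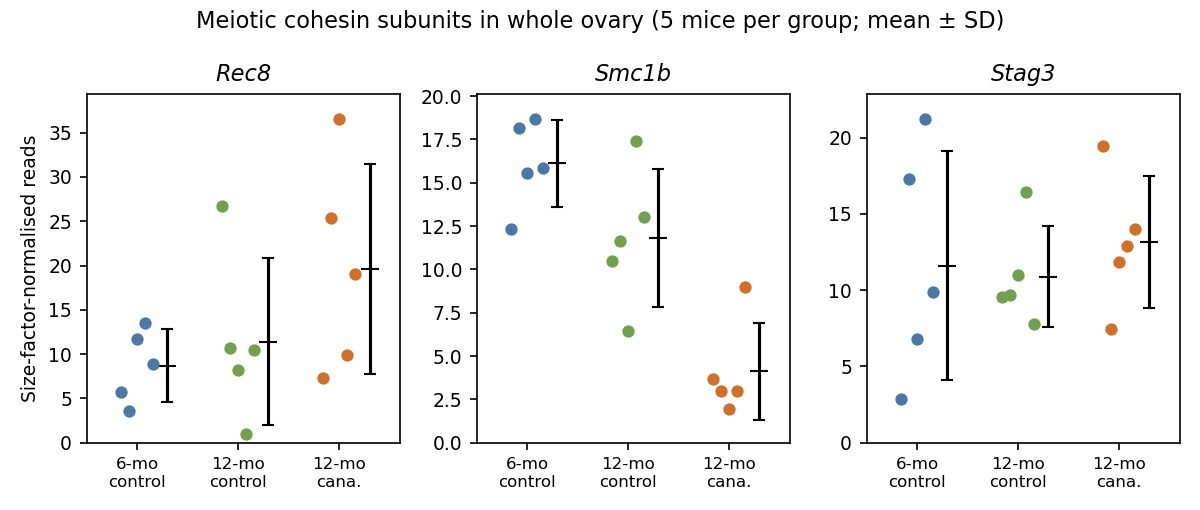
Normalised reads (linear axis from 0) of Rec8, Smc1b and Stag3 in each ovary, with 5 mice per group as points and mean ± SD as bars. For Smc1b the canagliflozin libraries sit between 1.97 and 9.01 and the 6-month controls between 12.3 and 18.7, while for Rec8 and Stag3 the 3 groups overlap.

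Smc1b encodes the meiotic partner of SMC3 and is needed in mice for stable cohesion in oocytes. Its values in replicates 1 to 5 were 12.3, 18.2, 15.6, 18.7 and 15.9 normalised reads in the 6-month controls. At 12 months without drug they were 10.5, 11.6, 6.43, 17.4 and 13.03. In the canagliflozin group they were 3.65, 2.98, 1.97, 2.97 and 9.01. The canagliflozin values lay below every 6-month control, and only replicate 5, at 9.01, overlapped the 12-month controls, above their replicate 3.

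Behind these values stood 87 reads in the 5 ovaries at 6 months (exact 95% Poisson interval 69.7 to 107), 62 at 12 months (47.5 to 79.5) and 19 with canagliflozin (11.4 to 29.7). The intervals cover counting error only. Between 12-month and 6-month controls Smc1b was not called, at 11.8 ± 3.99 against 16.1 ± 2.52 (0.724-fold, 95% interval 0.443 to 1.18, limma adjusted p = 0.397). Between canagliflozin and 12-month controls it stood at 4.12 ± 2.80 against 11.8 ± 3.99 (0.379-fold, 95% interval 0.232 to 0.620), with an unadjusted p of 0.000693. It did not pass over all genes (limma adjusted p = 0.265, edgeR quasi-likelihood adjusted p = 0.343). Over the alternative settings this adjusted p ran from 0.0285 to 0.689. It passed in 1 of them, the fit without canagliflozin replicate 5 (log2 fold change -1.67, limma adjusted p = 0.0285), the library at 9.01. That is the highest Smc1b value of its group, so leaving it out lowers the group mean by itself.

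Between canagliflozin and 6-month controls, a comparison that joins drug and age, Smc1b fell to 0.275-fold with a 95% interval of 0.168 to 0.449 (limma adjusted p = 0.000898, edgeR adjusted p = 0.00147). Smc1b stayed called in every setting that tested it, with adjusted p up to 0.00318. The alternative filter on the mean value removed it, so that setting gave no test. In the main fit Smc1b passed the filter on low values through control libraries alone, which are the higher side of this comparison. With no filter on low values it was called as well (limma adjusted p = 0.000921). The age and drug comparisons share the 12-month controls, and both drug comparisons share the canagliflozin libraries, so these values are not independent of each other.

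Oocyte markers were set beside Smc1b, since the meiotic forms are germ cell genes. The 19 oocyte markers summed to 3472 to 5524 normalised reads in 6-month controls, 3618 to 5307 in 12-month controls and 2650 to 4750 with canagliflozin, so the groups overlapped. None was at 0 throughout a group. Of the 17 tested, none was called with canagliflozin against 12-month controls, where 14 lay below 0 on the log2 scale and their median was -0.28, beside 0.00 over all genes tested. Against 6-month controls, where Smc1b was called, 1 of the 17 was called, Nobox, an oocyte transcription factor, which fell from 102.6 to 54.5 normalised reads (0.503-fold, limma adjusted p = 0.0114), 12 of 17 lay below 0 and the median was -0.28. Over all genes tested 14.9% were called lower there. The oocyte score, the mean log2(value + 1) of these 17 genes, was 6.66 and 6.62 in canagliflozin replicates 2 and 4, below all other libraries. In canagliflozin replicates 1, 3 and 5 it was 7.52, 7.46 and 7.49, within the range of 7.10 to 7.68 in the 12-month controls, and Smc1b in these 3 was 3.65, 1.97 and 9.01. With the score as a covariate, the log2 fold change of Smc1b was -1.34 against 12-month controls (limma adjusted p = 0.457) and -1.82 against 6-month controls (limma adjusted p = 0.00185). Figla and Sohlh1 did not pass the filter and are outside the score. Figla averaged 9.30 ± 2.37, 5.86 ± 2.84 and 5.76 ± 4.53 in 6-month controls, 12-month controls and canagliflozin ovaries. Sohlh1 averaged 10.6 ± 2.38, 7.95 ± 2.39 and 5.34 ± 1.80 in the same order. The part of oocyte number in the course of Smc1b was not tested. Over the 15 libraries Pearson's r with the score was 0.34 for Smc1b, 0.35 for Stag3 and -0.01 for Rec8, which is a description only. With the mitotic forms Smc1b had r of 0.82 (Smc1a), 0.80 (Smc3), 0.76 (Rad21), 0.48 (Stag2) and -0.22 (Stag1), likewise a description.

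**Figure D2:**
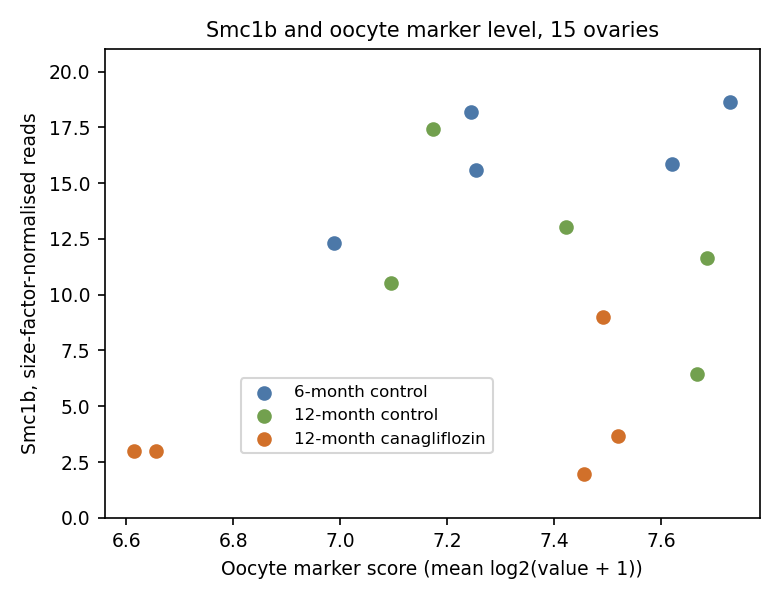
Smc1b in normalised reads (vertical axis) against the oocyte marker score in log2 units (horizontal axis), 1 point per ovary and colours for the 3 groups. The canagliflozin ovaries have 1.97 to 9.01 normalised reads of Smc1b both at low scores (6.62 and 6.66) and at scores of 7.46 to 7.52.

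Rec8 encodes the meiotic kleisin whose cleavage lets homologous chromosomes part. Among the 8 genes it had the widest relative spread in the 12-month controls (SD 82.4% of the mean), while Stag3 had it at 6 months (64.8%, Rec8 47.2%) and Smc1b with canagliflozin (68.0%, Rec8 60.5%). It measured 5.69, 3.63, 11.7, 13.6 and 8.92 normalised reads at 6 months and 26.7, 10.7, 8.26, 1.03 and 10.4 in 12-month controls. With canagliflozin it measured 7.30, 25.3, 36.5, 9.91 and 19.02. The groups overlapped in every comparison, and the extremes, 1 read and 37 reads, fell in 12-month control replicate 4 and canagliflozin replicate 3.

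The scatter of Rec8 around its group mean was 2.15, 7.38 and 7.02 times that expected from counting in 6-month controls, 12-month controls and canagliflozin ovaries (chi-square of the reads over its 4 degrees of freedom). For Smc1b the same ratio was 0.485, 1.42 and 2.04, and for Stag3 5.41, 1.00 and 1.10. The ratio grows with the number of reads, and among the abundant mitotic forms it reached 17.2 for Stag2 at 12 months and 30.3 for Rad21 with canagliflozin. Rec8 was not called in any comparison. With canagliflozin against 12-month controls it was 1.92-fold with a 95% interval of 0.804 to 4.57 (limma adjusted p = 0.631), and with age 1.04-fold with an interval of 0.437 to 2.48 (limma adjusted p = 0.965). The gene Ipo4, which encodes an importin, ends 5 bases from Rec8 on the other strand, and the strand setting of the counting is not given in the sources used here. Ipo4 measured 1186 ± 77.6, 919 ± 133 and 794 ± 99.9 normalised reads in 6-month controls, 12-month controls and canagliflozin ovaries, a fall with age (limma adjusted p = 0.0310). The Rec8 means were 8.70, 11.4 and 19.6 in the same order. Whether reads from Ipo4 were counted in Rec8 was not tested.

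Stag3, the meiosis-specific STAG subunit whose loss causes ovarian failure, did not separate the groups. It measured 2.84, 17.3, 6.82, 21.2 and 9.91 in the 6-month controls, 9.55, 9.70, 11.01, 16.4 and 7.82 at 12 months, and 19.5, 7.45, 11.8, 12.9 and 14.01 with canagliflozin. Its fold change was 1.09 with age (95% interval 0.595 to 2.01, limma adjusted p = 0.878) and 1.17 with the drug (0.638 to 2.16, limma adjusted p = 0.873). The sign of its age difference turned with count-based tests (edgeR log2 fold change -0.11, DESeq2 -0.10) and without 6-month control replicate 1 (-0.24), the library with 3 Stag3 reads. Gpc2 lies 235 bases from the Stag3 start on the other strand at 194 ± 31.7, 219 ± 58.7 and 186 ± 50.9 normalised reads.

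Meiotic and mitotic paralogs were compared within each library per kilobase. Smc1b amounted to 1.57 ± 0.253% of Smc1a at 6 months, 1.20 ± 0.364% at 12 months and 0.470 ± 0.277% with canagliflozin (n = 5). The canagliflozin ratios, 0.232 to 0.940%, lay below all 6-month ratios (1.15 to 1.82%) and overlapped the 12-month ones (0.805 to 1.79%). Rec8 amounted to 0.871 ± 0.443%, 1.14 ± 0.853% and 2.24 ± 1.43% of Rad21 in the same order of groups, and Stag3 to 1.03 ± 0.613%, 0.828 ± 0.223% and 1.14 ± 0.399% of Stag1 and Stag2 together. The 3 ratios differed in their order of groups. Both SMC1 genes start close to a RIBC gene on the other strand. Ribc2 lies 114 bases from Smc1b and averaged 0.905 ± 1.26, 0.913 ± 0.914 and 0 normalised reads in 6-month controls, 12-month controls and canagliflozin ovaries. At that level it did not pass the filter on low values and was not tested. Ribc1 lies 133 bases from Smc1a and averaged 15.4 ± 9.40, 18.7 ± 4.73 and 23.4 ± 4.08, with no call.

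Among the mitotic forms, Stag1 rose with age. STAG1 is the STAG subunit linked to cohesion at telomeres and to stable chromatin loops. It measured 569.7, 582, 523, 660 and 599.8 normalised reads in the 6-month controls and 770, 712, 622, 812 and 762 in untreated 12-month mice. With canagliflozin it measured 708, 702, 684, 688 and 676. The 12-month control replicate 3 at 622 lay below the highest 6-month control at 660, and the other 4 lay above all 6-month values. Replicate 3 is the library that stood apart by red cell transcripts. It was also the lowest 12-month control for Smc1b (6.43), Smc1a (925), Smc3 (705), Rad21 (1600) and Stag2 (978), not for Rec8 or Stag3. The Stag1 mean went from 587 ± 49.6 to 736 ± 72.8, 1.25-fold with a 95% interval of 1.11 to 1.41 (SE of the log2 fold change 0.08, limma adjusted p = 0.0170, edgeR adjusted p = 0.0136).

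Stag1 was the 1 called gene of 8 in the age comparison, where 12.4% of all genes tested were called, 5.4% higher and 7.01% lower, so the share of members called was near that of all genes. No member had age groups that did not overlap, beside 13.7% of all genes. Its call held in each of the 15 fits without 1 library, with adjusted p from 0.00740 to 0.0486. It was lost with a correction of every library for transcript length and GC content (log2 fold change 0.16, limma adjusted p = 0.118). The Stag1 transcript is 6186 bases long, in the longest of 5 equal length classes, where 13.8% of genes were called higher and 10.4% lower with age, against 2.63% and 2.14% in the shortest class. The median log2 fold change with age was 0.06 in the longest class and 0.09 in the shortest. Markers of other cells moved with age as well. Of 5 tested lymphocyte markers 3 rose, the list of 6 summing to 131 to 183 normalised reads at 6 months, 433 to 818 at 12 months and 499 to 696 with canagliflozin. Of 4 fat cell markers 3 rose, and 1, not called, lay below 0 on the log2 scale. All 4 together, that 1 included, summed to 253 to 505, 269 to 995 and 277 to 705 in the same order of groups. Adipoq, which defines fat cells, averaged 0.897, 26.1 and 13.7. Of 8 granulosa markers 2 rose with age, Inhba (3.82-fold, limma adjusted p = 0.00491) and Nr5a2 (1.68-fold, 0.0121), as did 1 of 7 luteal markers, Prlr (1.71-fold, 0.0405). Of 6 macrophage markers 2 fell, Adgre1 (0.404-fold, limma adjusted p = 0.00508) and Csf1r (0.481-fold, 0.0105), as did Col1a1 of 7 theca and stroma markers (0.585-fold, 0.0452) and Cdh5 of 6 endothelial markers (0.731-fold, 0.0389). Other markers of these lists went the other way without a call. On the log2 scale 2 granulosa and 2 luteal markers lay below 0. Above 0 lay 1 macrophage marker, 2 theca and stroma markers and 2 endothelial markers. The part of these cells in the age differences of Stag1 and of the cohesin regulators was not tested.

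Stag2, the more abundant STAG paralog, was not called. It measured 946, 1130, 1019, 1076 and 957 normalised reads in the 6-month controls and 1297, 1127, 978, 1366 and 1227 in untreated 12-month mice. With canagliflozin it measured 961, 1164, 866, 896 and 1201. Its age difference was 1.16-fold (95% interval 0.989 to 1.37, limma adjusted p = 0.216) and its sign turned with the length and GC correction (log2 fold change -0.07). Against 12-month controls the canagliflozin group stood at 0.847-fold (95% interval 0.719 to 0.997, limma adjusted p = 0.538). Per kilobase, Stag1 made up 36.4 ± 2.26% of the STAG1 and STAG2 transcripts at 6 months, 38.0 ± 0.769% at 12 months and 40.7 ± 3.66% with canagliflozin. The canagliflozin ovaries lay apart among themselves, at 42.4, 44.05 and 43.4% in replicates 1, 3 and 4 and 37.6 and 35.9% in replicates 2 and 5. The sum of both STAG transcripts per Smc3 transcript was 1.54 ± 0.130, 1.85 ± 0.110 and 1.82 ± 0.197 in the 3 groups, in the same order.

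**Figure D3:**
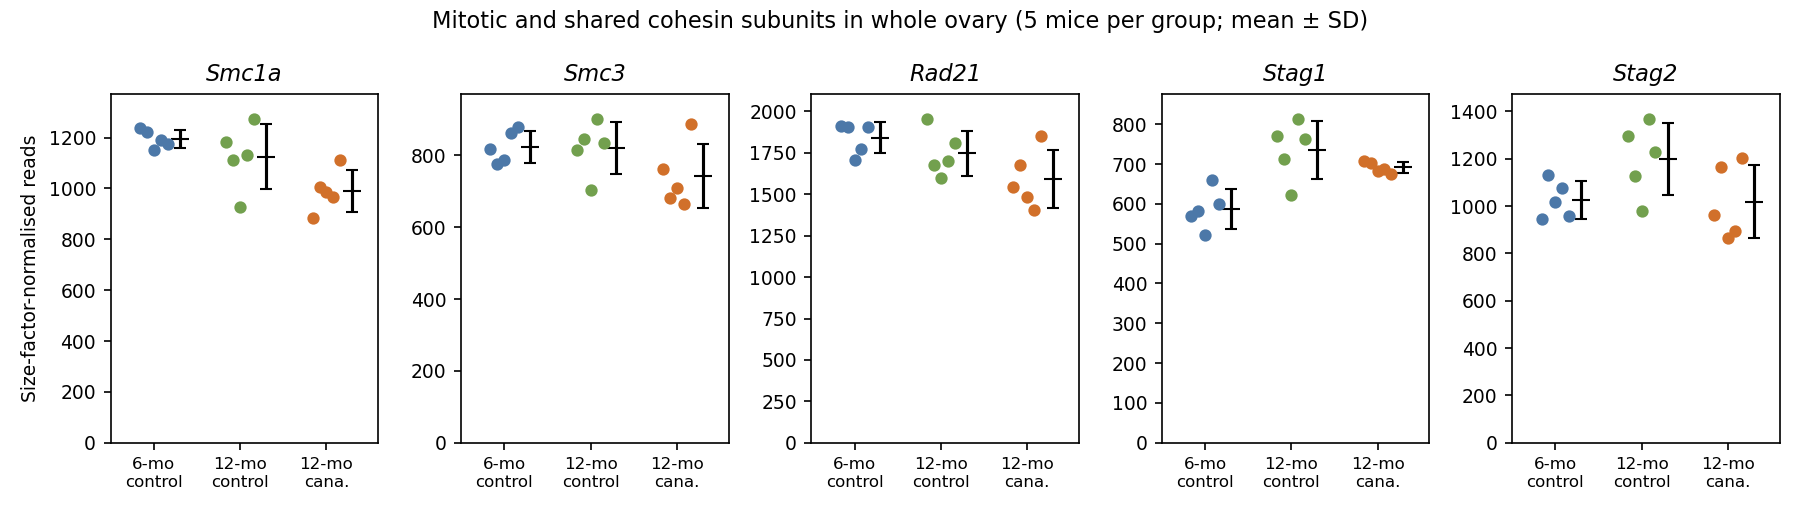
Normalised reads (linear axes from 0, scaled per gene) of the 5 mitotic forms in each ovary, with 5 mice per group as points and mean ± SD as bars. Stag1 lies higher in 12-month controls (622 to 812) than in 6-month controls (523 to 660) apart from 1 library, and Smc1a lies lower with canagliflozin (882 to 1111) than at 6 months (1150 to 1237).

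Smc1a, Smc3 and Rad21 encode the core of the somatic ring. Smc1a measured 1237, 1222, 1150, 1191 and 1173 normalised reads at 6 months, 1181, 1112, 925, 1131 and 1271 in untreated 12-month mice, and 882, 1007, 987, 966 and 1111 with canagliflozin. None of the 3 was called between 12-month and 6-month controls, with 95% intervals of the fold change of 0.825 to 1.06 for Smc1a, 0.870 to 1.13 for Smc3 and 0.836 to 1.07 for Rad21. Smc3 averaged 824 ± 44.7, 820.4 ± 71.9 and 742 ± 89.4 and Rad21, the kleisin cut by separase at anaphase, 1842 ± 93.3, 1747 ± 137 and 1592 ± 176 in 6-month controls, 12-month controls and canagliflozin ovaries.

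None of the 8 members was called between canagliflozin and 12-month controls, and limma called 1 of 17569 genes (0.00569%), a higher one, and 0 lower. No member had groups that did not overlap, beside 1.05% of all genes. At an unadjusted p under 0.05 stood 2 of 8 members, Smc1b and Stag2, and 9.2% of all genes. DESeq2 and edgeR also called none of the 8. All 5 mitotic forms had a negative log2 fold change, from -0.24 (Stag2) to -0.08 (Stag1) with a median of -0.15, where the quartiles over all genes tested were -0.15 and 0.16. Their values are not independent of each other: over 15 libraries Pearson's r was 0.82 between Smc1a and Rad21 and 0.68 between Smc1a and Smc3, whereas Stag1 had r of -0.14 with Smc1a, 0.12 with Smc3 and -0.18 with Rad21. Genes with long transcripts (the longest of the 5 classes) had a median of -0.08 here and those of the shortest class 0.13, and with the length and GC correction the median of the mitotic forms was -0.07.

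Against 6-month controls the canagliflozin ovaries had 3 members called, Smc1b and Smc1a lower and Stag1 higher, beside 28.4% of all genes tested (13.5% higher, 14.9% lower). The same 3 were those whose groups did not overlap, beside 18.5% of all genes (8.05% higher, 10.4% lower). Smc1a fell to 0.827-fold (95% interval 0.729 to 0.939, limma adjusted p = 0.0263), at 990.5 ± 82.4 against 1195 ± 35.3. Stag1 rose 1.18-fold (95% interval 1.05 to 1.33, limma adjusted p = 0.0395), at 691 ± 13.3 against 587 ± 49.6. The Smc1a call was lost without 6-month control replicate 1 or 2 or canagliflozin replicate 1 or 4 (limma adjusted p = 0.0509 to 0.0648). The Stag1 call was lost in 8 of 15 such fits, those without 6-month control replicate 1, 2, 3 or 5 or canagliflozin replicate 1, 2, 3 or 4 (limma adjusted p = 0.0583 to 0.0992). After the length and GC correction 5 members were called, all lower (Smc1b, Smc1a, Smc3, Rad21 and Stag2), and Stag1 was not (limma adjusted p = 0.0721). The share of all genes called after that correction is not given here, so the 5 cannot be read against it. Over the settings other than leaving out 1 library, the genes called in this comparison ran from 3916 to 5769, beside 4982 in the main fit.

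**Figure D4:**
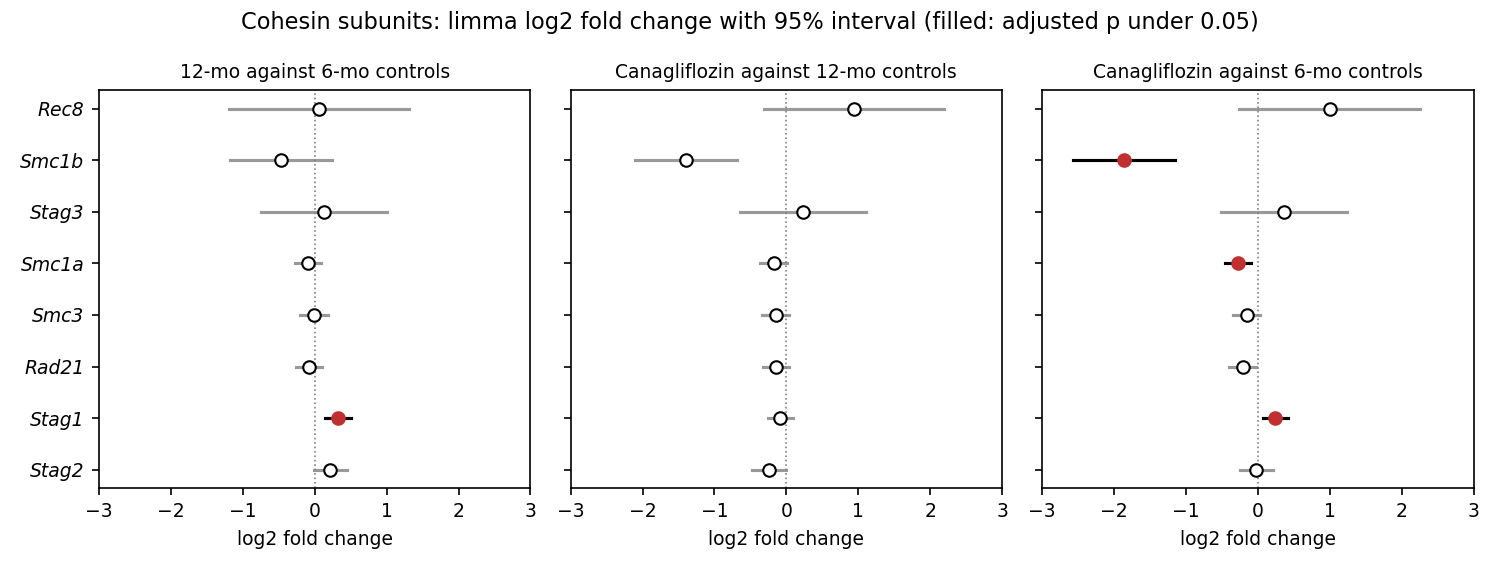
Limma log2 fold change of the 8 cohesin genes (points) with 95% intervals (lines) in the 3 comparisons, filled where the adjusted p over all genes is under 0.05. The intervals of the meiotic forms are several times wider than those of the mitotic forms, and the called points are Stag1 with age, and Smc1b, Smc1a and Stag1 in canagliflozin against 6-month controls.

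The factors that load and release the ring were described from a list of 11 genes, of which 10 were in the table and tested and Rad21l was not analysed here. With age 4 of the 10 rose, none fell and 6 were not called, with a median log2 fold change of 0.21 where that over all genes was 0.00. Over all genes tested 5.4% were called higher. Nipbl, the loader that also drives loop extrusion, rose from 790 ± 61.4 to 1152 ± 160 (1.45-fold, SE of log2 0.09, limma adjusted p = 0.00207), and its partner Mau2 from 1501 ± 204 to 2024 ± 188 (1.35-fold, limma adjusted p = 0.0153). Wapl, which opens the ring and releases it from chromatin, rose from 1097 ± 129 to 1434 ± 98.5 (1.31-fold, limma adjusted p = 0.00964), and Pds5a, which works with WAPL and with the acetyltransferases, from 926 ± 51.02 to 1209 ± 101 (1.30-fold, limma adjusted p = 0.00503). The age groups did not overlap for Nipbl, Wapl and Pds5a, as for 13.7% of all genes tested, and overlapped for Mau2, with a highest 6-month value of 1798 and a lowest 12-month value of 1793.

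After the length and GC correction, 2 of these 4 calls remained, Nipbl (log2 fold change 0.31, limma adjusted p = 0.0142) and Mau2 (0.54, limma adjusted p = 0.00963), and Wapl (adjusted p = 0.158) and Pds5a (adjusted p = 0.0955) were lost. The insulator protein gene Ctcf, whose sites stop cohesin on chromatin, measured 1145 ± 54.2 and 1165 ± 88.4 at the 2 ages (limma adjusted p = 0.880). With canagliflozin against 12-month controls none of the 10 was called. The smallest p in the list belonged to Pds5b (596 ± 57.9 against 710 ± 74.1, limma adjusted p = 0.490), Ctcf (1034 ± 68.6 against 1165 ± 88.4, 0.515) and Esco2, an acetyltransferase of the SMC3 head (69.4 ± 13.6 against 86.9 ± 15.2, 0.618). Against 6-month controls the canagliflozin ovaries had the same 4 genes called higher (limma adjusted p = 0.00116 each for Nipbl and Mau2, 0.0104 for Pds5a and 0.0367 for Wapl). Over all genes tested 13.5% were called higher in that comparison. There too the length and GC correction ended the calls of Wapl (limma adjusted p = 0.199) and Pds5a (0.0528), and Pds5b was then called lower (0.00819).

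The list of protectors and cleavage factors held 12 genes, of which Meikin and Sgo2b did not pass the filter and 10 were tested. With age 1 fell, none rose and 9 were not called, with a median log2 fold change of -0.05. Over all genes tested 7.01% were called lower with age. Ppp2r1a, the scaffold of the phosphatase that shugoshin brings to centromeric cohesin, fell from 2416 ± 101 to 1962 ± 149 (0.811-fold, limma adjusted p = 0.0152). That call was lost after the length and GC correction (limma adjusted p = 0.186). Sgo2a, the shugoshin that guards REC8 in oocytes, measured 71.8 ± 18.1 and 95.4 ± 23.5 at the 2 ages (limma adjusted p = 0.287), and Ppp2r5c, a regulatory subunit of that phosphatase, 1392 ± 14.8 and 1269 ± 106 (0.309). No gene of this list was called with canagliflozin against 12-month controls, where Ppp2r5c had the smallest p (1113 ± 119 against 1269 ± 106, limma adjusted p = 0.517), followed by Pttg1, the securin gene (303 ± 112 against 228 ± 35.4, 0.610), and the checkpoint kinase Bub1 (0.750). Against 6-month controls Pttg1 was called higher (limma adjusted p = 0.0435) and Ppp2r1a (0.00985) and Ppp2r5c (0.00827) lower, beside 28.4% of all genes called (13.5% higher, 14.9% lower). After the length and GC correction Pttg1 (limma adjusted p = 0.105) and Ppp2r1a (0.0838) lost that call and Ppp2r5c did not (0.00954).

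Condensin and the SMC5/6 complex, built on related SMC proteins, gave 3 called genes of 14 with age, 2 higher and 1 lower, beside 12.4% of all genes called (5.4% higher, 7.01% lower). Smc5, of the complex that acts in DNA repair, rose from 453 ± 29.7 to 724 ± 72.6 (1.59-fold, limma adjusted p = 0.00110), and the condensin II subunit Ncapd3 from 236 ± 7.61 to 324 ± 43.6 (1.36-fold, limma adjusted p = 0.00554). The condensin I subunit Ncapd2 fell from 814 ± 139 to 580 ± 110 (0.712-fold, limma adjusted p = 0.0442), a call lost after the length and GC correction (limma adjusted p = 0.226), while those of Smc5 and Ncapd3 stayed (0.0165 and 0.0127). None of the 14 was called with canagliflozin against 12-month controls, with the smallest p for Nsmce1 (limma adjusted p = 0.733), Smc2 (0.742) and Smc6 (0.775). Against 6-month controls Smc5 (limma adjusted p = 0.000438) and Ncapd3 (0.00122) were called higher and Ncapd2 (0.00641) lower, and the length and GC correction ended the call of Ncapd2 (0.0652). Over all genes tested 13.5% were called higher and 14.9% lower in that comparison.

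**Figure D5:**
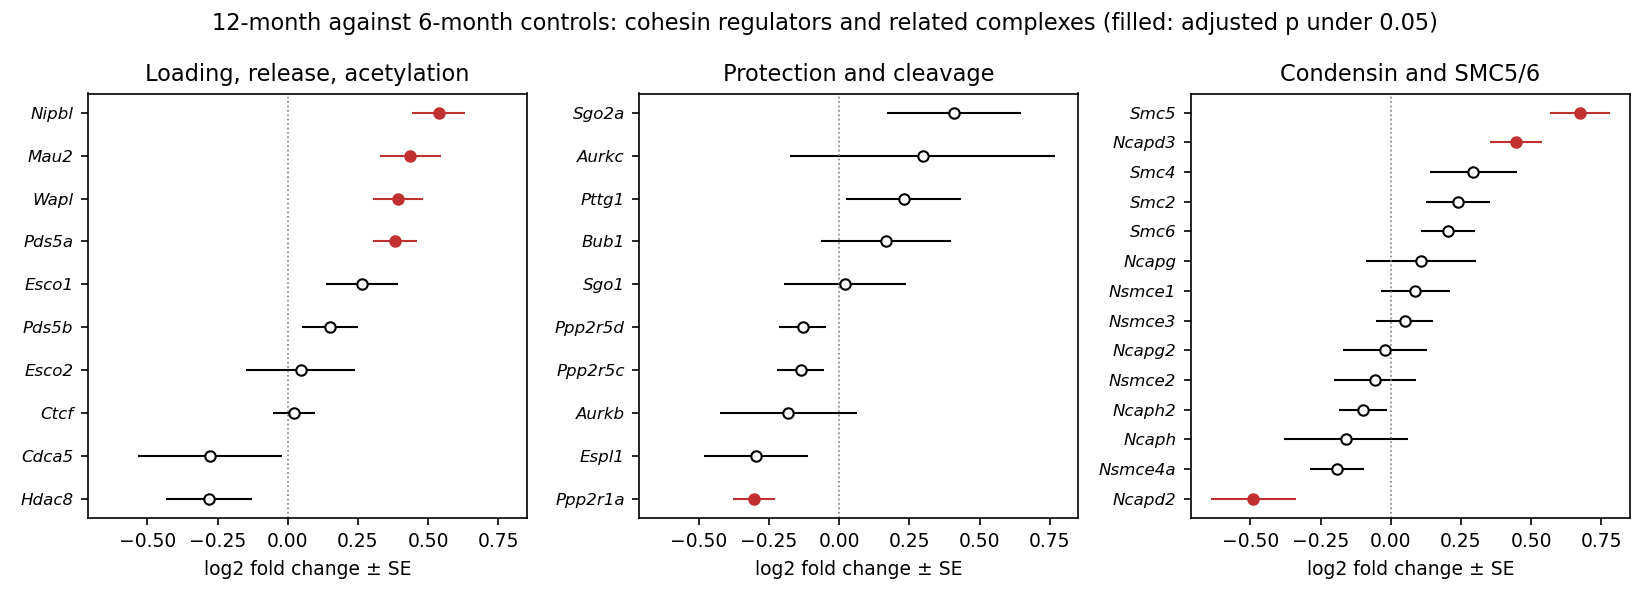
Log2 fold change with age (12-month against 6-month controls, points, with SE as lines) of tested cohesin regulators and of condensin and SMC5/6 genes, filled where the limma adjusted p is under 0.05. Called genes on the right are Nipbl, Mau2, Wapl, Pds5a, Smc5 and Ncapd3, from 0.38 to 0.67, and on the left Ppp2r1a (-0.30) and Ncapd2 (-0.49).

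Other genes of meiotic prophase were mostly too low to test. Of 21 listed, 15 were in the table and 3 passed the filter, and none of these was called in any comparison. Mlh3, a crossover factor, measured 216 ± 16.5, 231 ± 26.2 and 224 ± 43.1, Syce2, of the synaptonemal complex, 69.8 ± 12.8, 74.2 ± 22.1 and 77.9 ± 15.1, and Msh5, also a crossover factor, 33.3 ± 8.23, 31.3 ± 6.88 and 36.9 ± 9.07 in 6-month controls, 12-month controls and canagliflozin ovaries. Sycp3, an axial element protein to which meiotic cohesin is bound, did not pass the filter and was picked out after its values were seen. It measured 14.7 ± 9.13, 6.21 ± 1.67 and 5.58 ± 1.49 normalised reads. Its 6-month range of 3.63 to 28.8 overlapped the 12-month controls (4.10 to 8.73) and the canagliflozin ovaries (3.00 to 6.91). Other genes below the filter differed in their order of groups, with means of 4.73, 9.61 and 6.83 for Sycp2, 7.08, 6.88 and 8.50 for Dmc1, and 5.74, 3.96 and 2.76 for Syce1.

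Genes of cell division were set beside the mitotic forms, since dividing cells need cohesin to hold sister chromatids. Of 16 proliferation genes 1 fell with age, none rose and 15 were not called, with a median log2 fold change of -0.13. Over all genes tested 7.01% were called lower with age. Mcm2, a replicative helicase subunit, fell from 615 ± 94.98 to 444 ± 104 (limma adjusted p = 0.0472), a call lost with edgeR, which called none of the 16, and with the length and GC correction, and Mcm5 and Mcm7 had adjusted p of 0.0785 and 0.0883. Against 6-month controls, where Smc1a was called, 4 of the 16 fell with canagliflozin, Mcm2 (limma adjusted p = 0.00194), Mcm5 (0.00264), Mcm4 (0.00506) and Mcm7 (0.00811), all of the replicative helicase. Over all genes tested 14.9% were called lower there. In that comparison 13 of 16 lay below 0, with a median of -0.20, and the length and GC correction ended the call of Mcm7 (limma adjusted p = 0.0556). The summed level of the list was 5579 to 9241 normalised reads at 6 months, 5580 to 8847 at 12 months and 4464 to 8213 with canagliflozin. The part of cell division in the course of Smc1a was not tested.

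The genes most like each member over the 15 libraries were sought among 11809 named genes with a mean of at least 50 by Pearson's r of log2(value + 1), as a description with no test. For Smc1b they were Champ1 (0.95), Olfml1 (0.94) and Zfp521 (0.94), and for Stag1 Cdc37l1 (0.97), Grk3 (0.97) and Tmf1 (0.94). Smc3 had Urb2 (0.92), Ctcf (0.90) and Zfp146 (0.89), Smc1a had Gpatch2l (0.92), Snrnp200 (0.92) and Slc35f5 (0.91), and Rad21 had Cul4b (0.91), Dr1 (0.91) and Fbxo38 (0.89). Stag2 had Bmpr1a (0.91), Chm (0.91) and Arl14ep (0.90). The likeness was lower for Stag3, with Cers4 (0.88), Rgs11 (0.81) and Celf2 (0.80), and for Rec8, with Sirt4 (0.78), Apoo (0.75) and Tmem251 (0.74). With values of a few reads per library, such correlations also carry counting noise.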

How the data were processed

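The authors deposited 1 signal value for every gene in every library. The values fit reads divided by a size factor. Partek 11.0 and the mouse build mm39 appear in the submitters' processing notes, with aligner, counter, strand setting and scaling not given in the sources used here. Dividing by what 1 read is worth in a library gave reads, and over 99.99% came out whole within 0.1 (12 libraries clearly, 3 with a step near 1). No pair of libraries in a group agreed within counting noise. Because the unit is not a count, limma 3.58.1 (R 4.3.3, trend, robust) was fitted on log2(value + 1) over all 15 libraries. With edgeR 4.0.16 on the worked-back reads 9 genes were called between canagliflozin and 12-month controls, and DESeq2 1.42.0 was a further alternative. Tests were checked on simulated reads. Transcript lengths, GC content and neighbouring genes came from GENCODE M21 (GRCm38), which covers 98.4% of tested genes. The members and lists were chosen with earlier results of these data known. Named genes are the members, the 3 genes most correlated with each, and from the regulator, condensin and SMC5/6 and meiotic lists those called in any comparison and the 3 with the smallest p with age and with drug (proliferation list: age only). Mcm4, Mki67, Sycp2, Dmc1, Syce1, Figla, Sohlh1 and the markers of other cells were named after their values were seen.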

Additional observations from a re-analysis of the deposited data

Results flagged for a closer look

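Smc1b in the canagliflozin group had 1 library far from the others: replicate 5 measured 9.01 normalised reads (9 reads), while the other 4 measured 1.97 to 3.65 (2 or 3 reads). The gap to the nearest library took 0.762 of the group's range, above the critical value of 0.71 for 5 samples. Of 24 such tests, 8 genes in 3 groups, this was the 1 that passed, and chance flags about 1 in 20. Without this library Smc1b passed the threshold against the 12-month controls (log2 fold change -1.67, limma adjusted p = 0.0285). The library was picked from these same Smc1b values and is the highest of its group. Leaving it out lowers both the group mean and the spread, so that fit is no separate support for a difference.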

How the results depend on the processing

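Of the 8 genes, Smc1b against 6-month controls kept its call in all settings that tested it, and Stag1 with age kept it in all but the length and GC correction. After that correction 0 members were called with age and 5 in canagliflozin against 6-month controls, with the share of all genes called not given here. Over the settings other than leaving out 1 library, the genes called ran from 1736 to 2960 with age. In canagliflozin against 6-month controls they ran from 3916 to 5769. Members called in canagliflozin against 6-month controls numbered 1 with edgeR on the 12 libraries whose read step is clear (chosen after seeing the data) and 1 to 4 when 1 library was left out. Against 12-month controls the members called ranged from 0 to 1 on leaving out a library, and the genes called from 0 to 37. The 1 gene called there became 9 with edgeR, 63 with DESeq2, 2 with no filter, 23 with edgeR on 12 libraries, and 0 with only the 2 groups compared, with the oocyte covariate or with the length and GC correction. With the replicate number as a block it became 3. Same-numbered libraries correlated from -0.298 to 0.249 in their deviations and 6 of 15 libraries correlated best with their own number. Whether libraries of the same number belong together was not tested. The block changed no call of a member. Differences with age that turned sign were those of Stag3 (-0.11 with edgeR, -0.10 with DESeq2, -0.16 with edgeR on 12 libraries), Stag2 (-0.072 with the length and GC correction) and Smc3 (0.024 with edgeR on 12 libraries, 0.043 without the shallowest and the highest red cell library, also chosen after seeing the data), none of them called, and the cause was not tested. Leaving out 1 library gave log2 fold changes with age of -0.34 to 0.61 for Rec8, -0.24 to 0.40 for Stag3 and -0.045 to 0.043 for Smc3, and against 6-month controls -0.0054 to 0.63 for Stag3 and -0.084 to 0.034 for Stag2. A filter on a mean of 50 removed the 3 meiotic forms, which thus have no value there. TMM scaling moved the median of all genes by at most 0.005. With 19 Smc1b reads in the canagliflozin group, depth limits what can be said of the meiotic forms.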
